A study of Mus musculus with 12 samples.

Results

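The nuclear genes for mitochondrial ribosomal proteins were followed through 6 days of retinoic acid treatment in P19 cells, mouse embryonal carcinoma cells of a line that turns into neuron-like cells. The genes were chosen by symbol (Mrpl or Mrps followed by a number), from reads that passed the poly(A) quality filter and mapped to messenger RNAs, with pseudogenes left out. This gave 78 genes of 14011 nuclear genes with reads, and 39276 of 4212664 nuclear messenger reads. Of the 78, 51 encode proteins of the large subunit, 26 of the small subunit, and Mrps36 encodes a protein of the oxoglutarate dehydrogenase complex. Mrps30 and Mrps18a carry small subunit names but sit in the large subunit and were counted there.

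The mitochondrial ribosome is built from ribosomal RNAs transcribed from mitochondrial DNA and from proteins that are encoded in the nucleus, made in the cytosol and imported. It translates only the messengers of mitochondrial DNA (the mt- messengers), all of which encode subunits of oxidative phosphorylation. Many of its proteins have a counterpart in bacterial ribosomes, whereas others have none. Neurons depend on oxidative phosphorylation more than pluripotent cells do.

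Poly(A) RNA of wild-type (WT) P19 cells was sequenced directly on nanopores at day 0 (D0, undifferentiated cells) and at day 2, 4 or 6 (D2, D4, D6) of 500 nM retinoic acid in NDiff 227 medium on poly-L-lysine, with 3 biological replicates of each day. Per the study's methods, undifferentiated cells were kept in Dulbecco's modified Eagle medium with fetal bovine serum. Medium and retinoic acid thus changed together after D0 and cannot be told apart. One sequenced molecule gave 1 read with an estimated tail length. The cells are a single tumour-derived line, the 3 libraries of a day shared their sequencing runs, and each of the 13 runs held 1 day only, so run and day cannot be told apart. The names of all 3 D0 runs carry the mark of another day while also calling the cells undifferentiated, and 2 of the 4 D6 run names give no day. Libraries were grouped by their labels.

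The libraries held between 118587 (D2 replicate 1) and 602155 (D0 replicate 2) nuclear messenger reads. Markers of cell types were set beside the labels. The summed level of 6 neuronal markers was 461 to 512 scaled CPM (counts divided by the scaled library size) at D0, 120 to 216 at D2, 910 to 1171 at D4 and 2197 to 2315 at D6. At D2, 2 of the 6 were called lower and 0 higher, and at D6 all 6 were called higher. The pluripotency markers went from 1991 to 2303 down to 179 to 224, with 4 of 4 tested lower and Zfp42 at 0 throughout. The neural progenitor markers went from 51.2 to 82.8 up to 374 to 529, with 4 of 4 higher. The glial markers reached 25.9 CPM at most at D6 (Aqp4 at 0), the endoderm markers 5.5 (Gata4, Sox17 and Afp at 0) and the mesoderm and muscle markers 3.7 (T and Mesp1 at 0). In such bulk RNA, fewer cells of a type and less of a messenger per cell cannot be told apart, and the part of the change in cell types in the results below was not tested.

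The 78 genes had 104 (Mrpl36) to 1526 (Mrpl12) reads over the 12 libraries, with a median of 458. The median standard error of a gene's log2 fold change at D6 was 0.201. In the members, 96.1% of reads lay on transcripts annotated as protein coding. Reads with a mapping quality of 10 or more made up 82.3% of their reads and 68.5% of all nuclear messenger reads. This share was 0% for Mrps10, 0.264% for Mrps23, 2.78% for Mrpl1 and 4.23% for Mrpl53. Their reads could be split with transcripts of like sequence. Mrps10 and Mrps23 each had reads on chromosome transcripts and on those of a patch sequence holding the same gene. Mrpl1 had 51.4% and 47.2% of its reads on 2 of its own transcripts. Reads split within a gene are summed in its tally, and splits with other genes were not tested.

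More mitochondrial ribosomal protein messengers fell than rose between D0 and D6, relative to other nuclear messengers. At D6, 28 of 78 (35.9%) were called lower at an adjusted p of at most 0.05 (limma-voom, Benjamini-Hochberg over all 9303 genes tested), where 18.2% of all genes tested were. Only 4 (5.13%) were called higher, where 19.4% of all genes were. The members' median log2 fold change was -0.31 against 0.02 over all genes, and 61 of 78 were below 0. Of the 28 lower genes, 27 had D6 libraries all below those of D0 (all but Mrpl16), and their log2 fold changes ran from -1.64 (Mrpl38) to -0.40 (Mrpl11). With every library thinned to the smallest, 7 members were called lower at D6 (8.97%) and 2 higher (2.56%), where 9.94% and 8.93% of 6114 genes tested were, so the lower calls then lay at the background share, and the median was -0.31 against 0.00. All p-values measure the spread between the 12 libraries.

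**Figure D1:**
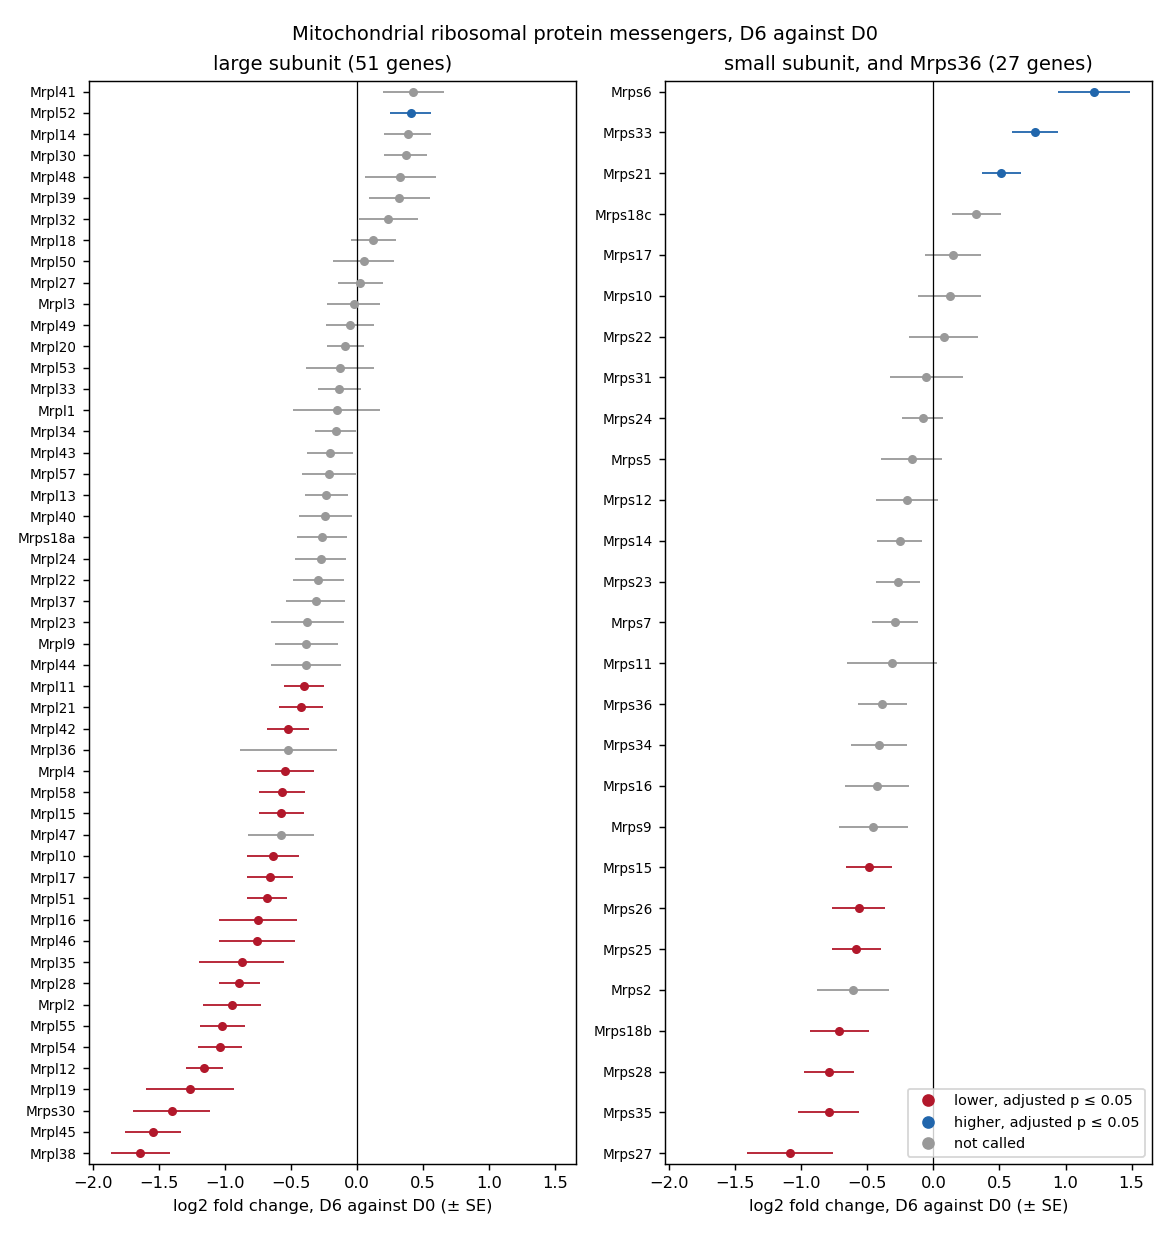
Log2 fold change in abundance at D6 against D0 for the 78 mitochondrial ribosomal protein genes, with bars of ± 1 standard error (limma-voom, n = 3 libraries a day). The left panel holds the 51 large subunit genes and the right panel the 26 small subunit genes with Mrps36. The 28 genes called lower are red, the 4 called higher blue and the others grey, and Mrpl38 at -1.64 and Mrps6 at 1.22 lie at the ends.

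The scaling bore on the count. TMM scaling factors centre the genes, whereas RPM, reads divided by the nuclear reads of a library with no factor, left the median of all genes at 0.25 at D6. On that scale the members' median was -0.08, that is -0.33 relative to all genes, the same distance as with the factors. There 13 members were called lower (16.7%, against 12.6% of all genes) and 8 higher (10.3%, against 27.4%). The 13 were all among the 28, namely Mrpl2, Mrpl12, Mrpl17, Mrpl19, Mrpl28, Mrpl38, Mrpl45, Mrpl51, Mrpl54, Mrpl55, Mrps27, Mrps28 and Mrps30. The 4 members called higher were called higher on both scales.

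The promoters of 5 of these genes are shown as the 100 bases before the annotated start, for 3 genes that fell and 2 that rose. The sequences come from RefSeq, build GRCm38.p6 (mm10), and are written 5′ to 3′ on the gene's own strand. Capitals mark a match to GCATGCGC, a motif like that of NRF1, a factor known for nuclear genes of mitochondrial proteins, or to CCGGAAG, the core motif of ETS factors such as GABPA, on either strand. These motifs do not overlap in the letters shown.
Mrpl12 (chr11:120484537-120484636, plus strand, fell): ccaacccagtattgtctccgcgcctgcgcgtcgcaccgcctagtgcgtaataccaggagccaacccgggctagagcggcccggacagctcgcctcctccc
Mrps27 (chr13:99344686-99344785, plus strand, fell): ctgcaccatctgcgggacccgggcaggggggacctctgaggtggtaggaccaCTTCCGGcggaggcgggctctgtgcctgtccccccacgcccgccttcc
Mrpl17 (chr7:105811088-105811187, minus strand, fell): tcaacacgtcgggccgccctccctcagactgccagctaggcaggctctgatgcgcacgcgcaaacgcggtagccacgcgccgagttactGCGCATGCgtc
Mrpl52 (chr14:54426809-54426908, plus strand, rose): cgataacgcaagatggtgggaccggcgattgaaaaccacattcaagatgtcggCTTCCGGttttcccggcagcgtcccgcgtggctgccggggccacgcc
Mrps21 (chr3:95871515-95871614, minus strand, rose): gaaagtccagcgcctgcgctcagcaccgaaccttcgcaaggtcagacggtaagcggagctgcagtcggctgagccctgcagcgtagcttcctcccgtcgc
Mrps27 and Mrpl52 both held an ETS match within these bases, Mrpl17 held an NRF1-like match, and Mrpl12 and Mrps21 held neither there. The most-read transcript started 12 bases upstream of the RefSeq start for Mrpl17, 24 for Mrpl12 and 5 for Mrps21. The Mrpl17 match therefore lies within that transcript.

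Windows of 250 bases before to 50 after the start were found for 68 of the 78 members. For a member the window nearest the start of its most-read transcript was taken, and for other genes the first window listed. The shares below therefore rest on unlike choices of window. The ETS motif lay in 24 of the 68 (35.3%), in 9.12% of the windows of all 27025 genes, and in 21% of those of 7406 other genes tested. The NRF1-like motif lay in 8 of the 68 (11.8%), against 2.8% and 6.28%. The windows of genes lower at D6 held the ETS motif in 7 of 21 (33.3%) and the NRF1-like motif in 3 (14.3%), and those of genes with no call held them in 14 of 43 (32.6%) and in 5 (11.6%). Of the 4 genes higher at D6, 3 held the ETS motif and 0 the NRF1-like one. A match describes the letters only.

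In the large subunit, 21 of 51 genes (41.2%) were lower at D6 and 1 (1.96%) was higher, beside 18.2% and 19.4% of all genes, with a median log2 fold change of -0.38. Without scaling factors, 11 were lower and 4 higher, beside 12.6% and 27.4% of all genes, with a median of -0.11. Mrpl38, a protein of the central protuberance without a bacterial counterpart (chr11:116131817-116138868, mm10), had 158, 162 and 158 scaled CPM in the D0 libraries, 72, 110 and 91.7 at D2, 82.4, 62.2 and 79.9 at D4, and 66.6, 46.9 and 44 at D6. The D0 libraries lay close together and above every later library. Its log2 fold change at D6 was -1.64 ± 0.22 (SE, adjusted p = 1.23e-08, limma). It was -0.73 at D2 (adjusted p = 0.0285, limma) and -1.11 at D4 (adjusted p = 1.31e-05, limma). The D2 call was lost without scaling factors and with reads of high mapping quality alone.

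Mrpl45, which holds the mitochondrial ribosome at the inner membrane near the exit tunnel (chr11:97315716-97329920), was at 180, 188 and 207 CPM at D0, 80, 69.3 and 103 at D2, 124, 93.3 and 65.8 at D4 and 81.4, 49 and 77 at D6. The D0 libraries again stood above all others, and the drop was already present at D2. The log2 fold change was -1.19 at D2 (adjusted p = 0.00038, limma), -1.12 at D4, then -1.54 ± 0.21 at D6 (adjusted p = 1.93e-08, limma).

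Mrpl12 belongs to the stalk that recruits translation factors and also binds the mitochondrial RNA polymerase (chr11:120484613-120489065). It had 489, 550 and 461 CPM at D0, 472, 339 and 324 at D2, 379, 359 and 289 at D4, and 263, 217 and 204 at D6. One D2 library lay within the D0 range, whereas the D4 and D6 libraries lay below it. The log2 fold change went from -0.46 at D2 (adjusted p = 0.0324, limma) to -0.57 at D4, then -1.15 ± 0.14 at D6 (adjusted p = 7.12e-10, limma). It was also lower at D6 than at D4, by a log2 fold change of -0.58 (adjusted p = 0.00658, limma). Mrpl11, of the base of the same stalk, had 211, 248 and 226 CPM at D0 and 189, 149 and 193 at D6, with a log2 fold change of -0.40 (adjusted p = 0.0308, limma) that did not pass without scaling factors (-0.17).

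Mrps30 (chr13:118378381-118387252), a large subunit protein despite its name, had 74.4, 96 and 96 CPM at D0, 96, 40.8 and 97.1 at D2, 98.9, 62.2 and 61.1 at D4, and 33.3, 25.6 and 44 at D6. Its D2 and D4 libraries overlapped those of D0, and all 3 D6 libraries were lower. The log2 fold change at D6 was -1.40 ± 0.29 (adjusted p = 8.66e-05, limma). With Mrpl12 it was 1 of the 2 members lower at D6 than at D4.

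Mrpl54 (chr10:81264713-81266934), a protein without a bacterial counterpart, went from 225, 247 and 239 CPM at D0 through 168, 163 and 162 at D2 and 173, 124 and 125 at D4 to 133, 102 and 118 at D6. Mrpl55 (chr11:59202492-59206134), the counterpart of bacterial L31, went from 235, 196 and 252 through 136, 175 and 173 and then 165, 146 and 136 to 133, 102 and 105. Every later library of both genes lay below those of D0. Their log2 fold changes at D6 were -1.04 ± 0.17 (adjusted p = 8.31e-07, limma) and -1.02 ± 0.17 (adjusted p = 2.04e-06, limma). Only 24.7% of Mrpl55 reads had a mapping quality of 10 or more, and with these reads alone it was still called lower at D6. After thinning, Mrpl55 was not called (adjusted p = 0.23, limma).

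Mrpl19 (chr6:81957851-81965958), near the interface of the subunits, had 60, 50.8 and 46.9 CPM at D0 and 18.5, 23.4 and 19.3 at D6, on 143 reads in all, with a log2 fold change of -1.26 ± 0.33 (adjusted p = 0.00168, limma). Mrpl28 (chr17:26123500-26126613) went from 300, 354 and 290 to 155, 173 and 176 (-0.89 ± 0.15, adjusted p = 2.97e-06, limma). Mrpl51 (chr6:125192165-125196269) went from 273, 363 and 316 to 237, 209 and 160 (-0.68 ± 0.15, adjusted p = 0.000208, limma). The D0 and D6 libraries of these 3 genes did not overlap. Mrpl58, which frees peptides from stalled ribosomes, fell by 0.57 on the log2 scale (adjusted p = 0.00624, limma).

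Mrpl2, at the catalytic centre (chr17:46646229-46650132), varied among the D0 libraries, with 127, 265 and 166 CPM against 92.5, 93.8 and 93.5 at D6. The log2 fold change was -0.95 ± 0.22 (adjusted p = 0.000389, limma), with 46.9% of reads at a mapping quality of 10 or more. After thinning, Mrpl2 was not called (adjusted p = 0.585, limma). Mrpl20, Mrpl3 and Mrpl33 were among the large subunit genes not called at D6. Mrpl20 had 266, 277 and 235 CPM at D0 and 244, 232 and 256 at D6, with a log2 fold change of -0.09 ± 0.14 (adjusted p = 0.661, limma). Mrpl3, near the catalytic centre, was at -0.03 ± 0.20 (adjusted p = 0.932, limma) and Mrpl33 at -0.13 ± 0.16 (adjusted p = 0.548, limma). These 3 values are positive without scaling factors (0.14, 0.21 and 0.10).

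**Figure D2:**
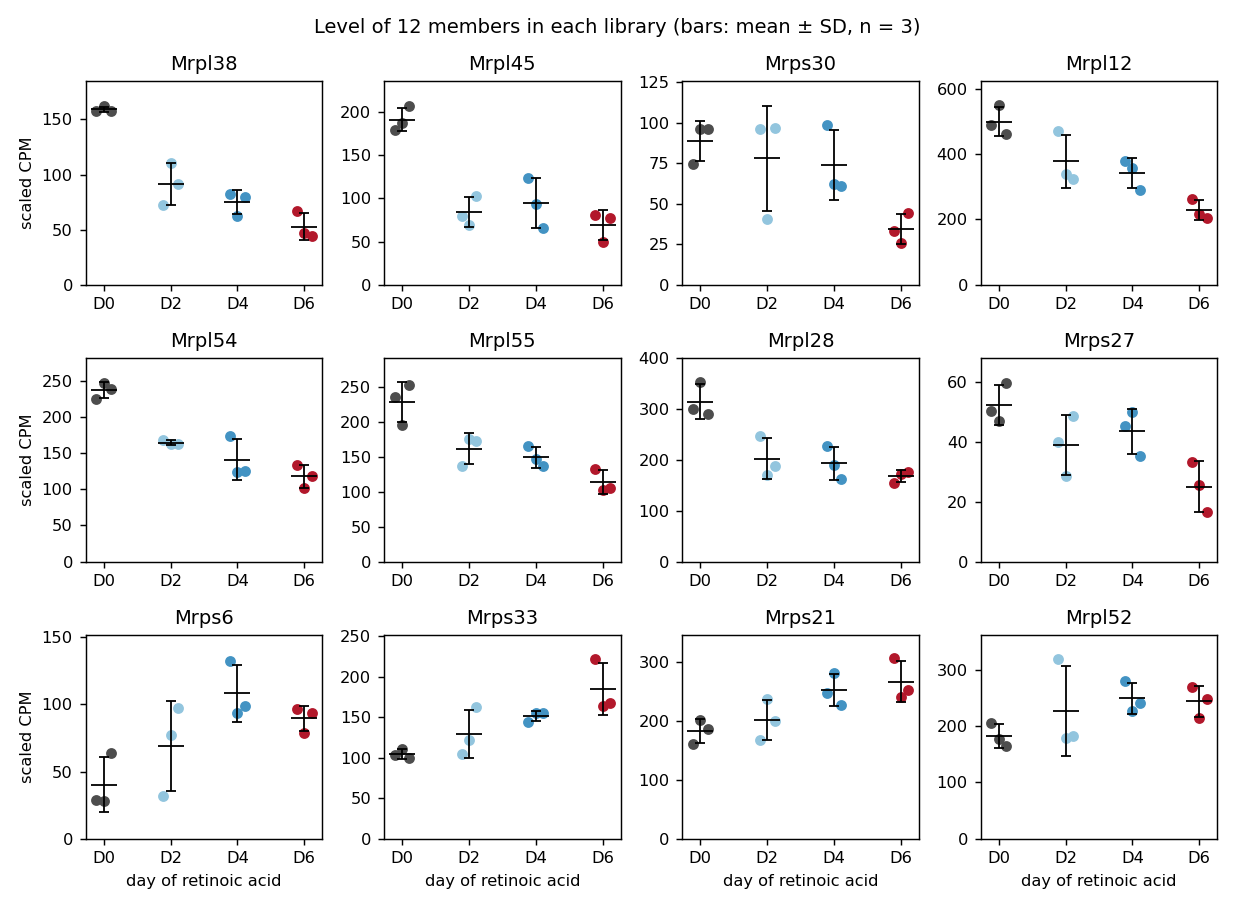
Level in scaled CPM (vertical axes, from 0) of 12 mitochondrial ribosomal protein genes in each library by day (horizontal axes), with bars for the mean ± SD of 3 libraries. Mrpl38, Mrpl45 and Mrpl54 have all later libraries below D0, Mrps30 separates from D0 at D6 but not at D2 or D4, and Mrps33 has its D4 and D6 libraries above all D0 libraries.

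In the small subunit, 7 of 26 genes (26.9%) were lower at D6 and 3 were higher, beside 18.2% and 19.4% of all genes, with a median log2 fold change of -0.28. Without scaling factors the balance turned, with 2 lower and 4 higher, beside 12.6% and 27.4% of all genes, and a median of -0.05. Mrps6, at the platform of the small subunit (chr16:92058270-92112227), had 28.8, 28.2 and 64 CPM at D0, 32, 77.5 and 97.1 at D2, 132, 93.3 and 98.8 at D4, and 96.2, 78.9 and 93.5 at D6. One D0 library was high and 1 D2 library low, and all D4 and D6 libraries lay above D0. It rose by 1.45 on the log2 scale at D4 (adjusted p = 1.86e-05, limma) and by 1.22 ± 0.27 at D6 (adjusted p = 0.000255, limma). Its exons share a strand and bases with those of Slc5a3 and Gm49711, so reads could be divided among the 3.

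Mrps33 (chr6:39801804-39810988) went from 103, 111 and 100 CPM at D0 through 104, 122 and 162 at D2 and 144, 155 and 155 at D4 to 222, 164 and 168 at D6. The D4 and D6 libraries stood above D0, and the log2 fold change at D6 was 0.77 ± 0.17 (adjusted p = 0.000304, limma). After thinning, Mrps33 was not called at D6 (adjusted p = 0.11, limma). Mrps21 (chr3:95862634-95871519) went from 161, 201 and 186 through 168, 237 and 200 and then 247, 282 and 228 to 307, 241 and 253. Its D2 libraries overlapped D0 and the later ones did not, with a log2 fold change at D6 of 0.51 ± 0.15 (adjusted p = 0.0046, limma).

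In the large subunit, Mrpl52 (chr14:54426909-54429756) was the gene that rose at D6, from 206, 177 and 164 CPM at D0 to 270, 215 and 248. The log2 fold change was 0.41 ± 0.16 (adjusted p = 0.034, limma), and the gap between the highest D0 and the lowest D6 library was small. Its call was lost under several alternatives, among them the limit to reads of high mapping quality. Mrpl52 and the 3 small subunit genes were all called higher at D4 as well, and 0 of the 4 at D2.

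Among the small subunit genes that fell, Mrps27, a pentatricopeptide repeat protein (chr13:99344786-99415562), had 50.4, 47 and 59.7 CPM at D0, 40, 28.6 and 48.6 at D2, 45.3, 50.2 and 35.3 at D4, and 33.3, 25.6 and 16.5 at D6. The groups overlapped at D2 and D4 and separated at D6, with a log2 fold change of -1.08 ± 0.32 (adjusted p = 0.00559, limma). With every library thinned to the smallest, Mrps27 was not called (adjusted p = 0.773, limma). Mrps28 and Mrps35 were each at -0.79 (adjusted p = 0.000571 and 0.00519, limma). Mrps12, of the decoding centre, had 76.8, 88.5 and 93.9 CPM at D0 and 107, 51.2 and 90.8 at D6, which overlap (-0.20, adjusted p = 0.53, limma). Mrps5 was at -0.16 (adjusted p = 0.617, limma), and Mrps2 at -0.61 (adjusted p = 0.0696, limma). Without scaling factors Mrps12 and Mrps5 were at 0.04 and 0.08, and Mrps2 was at 0.25 with reads of high mapping quality alone.

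Of the 3 copies of the S18 protein, Mrps18b, in the small subunit, fell by 0.71 on the log2 scale at D6 (adjusted p = 0.00811, limma). It did not pass without scaling factors (-0.48), after thinning or without D6 replicate 3, with adjusted p from 0.00425 to 0.0978 over 24 alternatives (limma). Mrps18c, in the small subunit, rose by 0.56 at D4 (adjusted p = 0.0164, limma) and was at 0.33 at D6 (adjusted p = 0.162, limma), where it passed as higher without scaling factors (0.56, adjusted p = 0.00928, limma, against at most 0.419 over the alternatives). Mrps18a, in the large subunit, was at -0.26 at D6 (adjusted p = 0.286, limma). The differences between the copies were not tested. Mrps36, outside the ribosome, was at -0.39 (adjusted p = 0.093, limma).

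Genes with and without a bacterial counterpart were counted apart at D6, where 18.2% of all genes were lower and 19.4% higher. Of 48 with a counterpart, 16 (33.3%) were lower and 2 higher, with a median of -0.30. Of 29 without one, 12 (41.4%) were lower and 2 higher, with a median of -0.31. Without scaling factors, 7 of the 48 (14.6%) and 6 of the 29 (20.7%) were lower, beside 12.6% of all genes, and 5 and 3 were higher, beside 27.4%. The difference between these groups was not tested.

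The calls built up over the days, which share the D0 libraries. At D2, 6 members were lower (6.19% of all genes were) and 1 was higher (4.58% of all genes), with a median of -0.15 against -0.05 over all genes. The 6 were Mrpl2, Mrpl12, Mrpl28, Mrpl34, Mrpl38 and Mrpl45, and the 1 was Mrpl30, all of the large subunit. Mrpl2, Mrpl28, Mrpl34 and Mrpl45 were still lower without scaling factors, and Mrpl12, Mrpl34 and Mrpl45 with reads of high mapping quality alone. Mrpl30 stayed higher in both. Without scaling factors the D2 calls were balanced, with 4 lower (3.94% of all genes) and 4 higher (7.63% of all genes) and a median of 0.03 against 0.13. At D4, 14 were lower (12.7% of all genes were) and 7 higher (also 12.7% of all genes), with a median of -0.17 against 0.00. The lower calls at D4 were 7 without D0 replicate 2, 8 without D4 replicate 3 and 9 without D0 replicate 3 or D4 replicate 2, and those at D2 were 3 without D0 replicate 2 or D2 replicate 2. The shares of all genes above belong to fits with every library, so these smaller counts have no such share beside them. Without scaling factors the D4 calls were 7 lower (9.96% of all genes) and 7 higher (16.2% of all genes), with a median of -0.06 against 0.12. The 7 lower genes on that scale were Mrpl2, Mrpl12, Mrpl28, Mrpl38, Mrpl45, Mrpl54 and Mrpl55. With the factors, of the 28 genes lower at D6, 13 were already lower at D4 and 5 at D2.

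Mrpl34 and Mrpl30 were called early and not at D6. Mrpl34 had 225, 248 and 243 CPM at D0, 192, 89.7 and 178 at D2, 251, 206 and 242 at D4, and 240, 213 and 195 at D6. Its D2 libraries were all below D0 (-0.80, adjusted p = 0.00465, limma), 1 of them far below, and the D4 libraries were higher than D2 (0.74, adjusted p = 0.0286, limma). Mrpl30 had 146, 132 and 151 CPM at D0, 216, 192 and 248 at D2, 251, 261 and 237 at D4, and 226, 183 and 157 at D6. All later libraries lay above D0, and the log2 fold change was 0.60 at D2 (adjusted p = 0.0218, limma), 0.81 at D4 (adjusted p = 4.85e-05, limma) and 0.37 at D6 (adjusted p = 0.0692, limma). Mrpl14, which contacts the small subunit and the factor Malsu1, rose by 0.63 at D4 (adjusted p = 0.00477, limma) and was at 0.38 at D6 (adjusted p = 0.0838, limma).

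Between neighbouring days few members passed. From D2 to D4, Mrpl34 rose (2.11% of all genes did) and Mrps10 fell (1.04% of all genes did). Mrps10 had 72, 114 and 97.1 CPM at D2 and 28.8, 50.2 and 49.4 at D4, none of its reads having a mapping quality of 10 or more. From D4 to D6, 0 members were called higher (4.37% of all genes were) and 2 lower (3.99% of all genes were) by limma-voom, Mrpl12 and Mrps30.

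The members summed to 9478 ± 301 RPM at D0, 9670 ± 325 at D2, 9379 ± 154 at D4, then 8915 ± 456 at D6 (SD, n = 3). The D0 and D6 libraries overlapped on this scale, a change of -5.94%. In scaled CPM the sum was 10374 ± 680 at D0 and 8377 ± 874 at D6, without overlap (-19.3%). The large subunit sum was lower at D6 without overlap on both scales, at 6739 ± 244 against 6031 ± 331 RPM. The small subunit sum was 2590 ± 73.6 against 2744 ± 130 RPM and overlapped on both scales, lying 5.95% higher in RPM and 9.05% lower in scaled CPM. Run by run, the members made up 9453 to 9553 RPM in the D0 runs and 7904 to 9026 in the D6 runs.

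The mt- messengers, which this ribosome translates, went the other way. They summed to 45143 ± 3656 RPM at D0, 69422 ± 8548 at D2, 89302 ± 7731 at D4, then 109411 ± 15048 at D6, 2.42 times the D0 level, and no later library overlapped D0. In scaled CPM the ratio at D6 was 2.09. Per member read there were 4.77 ± 0.492 mt- reads at D0, 7.16 ± 0.659 at D2, 9.53 ± 0.884 at D4, then 12.3 ± 1.47 at D6, with every later library above D0. As a share of all messenger reads, mt- reads rose from 4.32% ± 0.335 to 9.85% ± 1.23 (two-sided exact permutation test, p = 0.10, the smallest that 3 against 3 libraries allow). Nuclear genes for oxidative phosphorylation subunits summed to 31535 RPM at D0 and 39209 at D6, without overlap (24.3%), whereas in scaled CPM the days overlapped (6.81%). Cytosolic ribosomal protein messengers fell by 20.4% in RPM, without overlap. Of 84, 75 were called lower at D6 with scaling factors (18.2% of all genes were), and 63 were lower and 3 higher without them (12.6% and 27.4% of all genes).

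**Figure D3:**
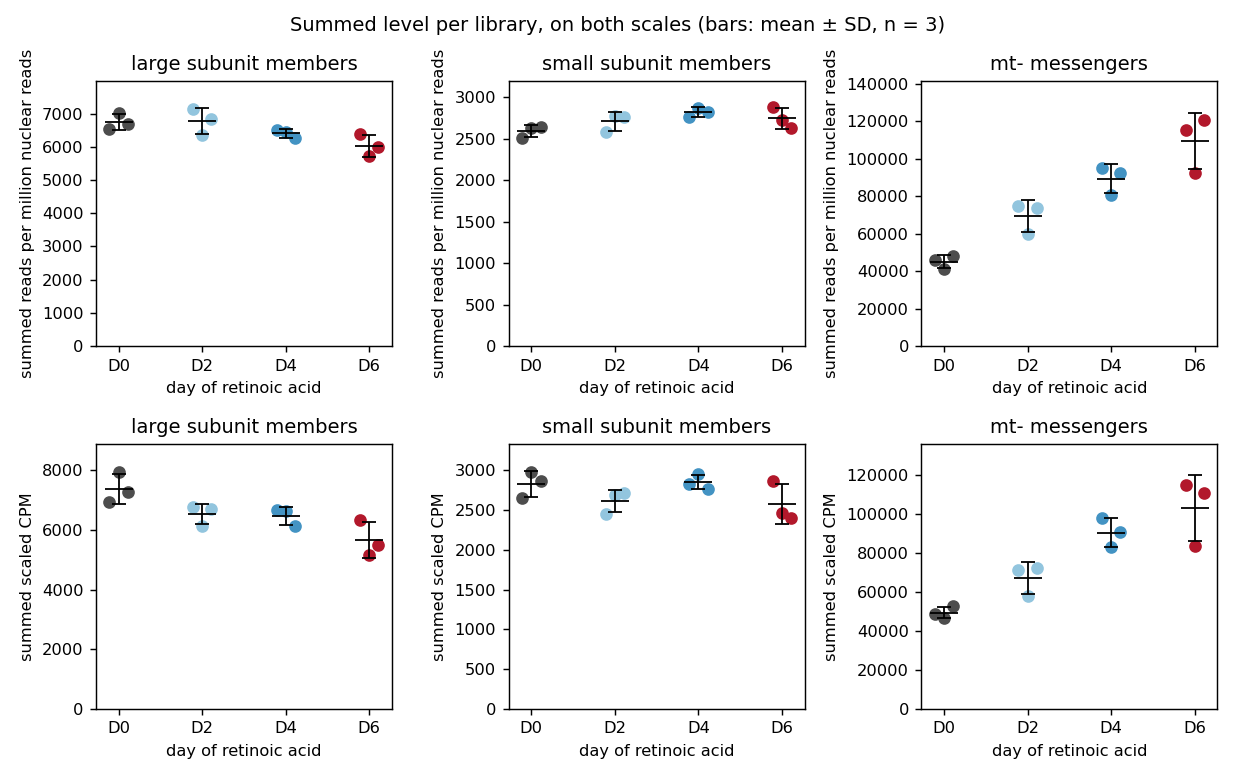
Summed level in each library by day (horizontal axes) of large subunit members, small subunit members and mt- messengers, in RPM (top) and in scaled CPM (bottom), with bars for the mean ± SD of 3 libraries. The mean large subunit sum is lowest at D6, small subunit sums overlap between D0 and D6, and mt- sums reach 109411 RPM at D6 from 45143.

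Of the 12 mt- messengers tested, 7 were called higher at D2 (4.58% of all genes were), 9 at D4 (12.7%), then 9 at D6 (19.4%). mt-Cytb, the cytochrome b subunit of complex III, had 3449, 3275 and 3870 scaled CPM at D0, 6657, 5772 and 7101 at D2, 11590, 9480 and 10579 at D4, and 12788, 9265 and 13119 at D6. The days from D2 on lay well above D0, and the log2 fold change at D6 was 1.69 ± 0.08 (adjusted p = 7.49e-26, limma). mt-Nd4, of complex I, followed at 1.61 ± 0.10. mt-Nd5, also of complex I, had 261, 258 and 265 CPM at D0, 157, 141 and 174 at D4, and 326, 168 and 275 at D6. It was lower at D4 (-0.73, adjusted p = 0.00109, limma) and at -0.14 at D6 (adjusted p = 0.531, limma). The other 2 without a call at D6 were mt-Nd4l (0.88, adjusted p = 0.114, limma) and mt-Nd6 (0.24, adjusted p = 0.217, limma). The annotated mt-Nd4l (chrM:9877-10173) and mt-Nd4 (chrM:10167-11544) overlap on the plus strand, so reads could be divided between them. The same holds for mt-Atp8 (chrM:7766-7969) and mt-Atp6 (chrM:7927-8607). How reads were divided was not tested.

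**Figure D4:**
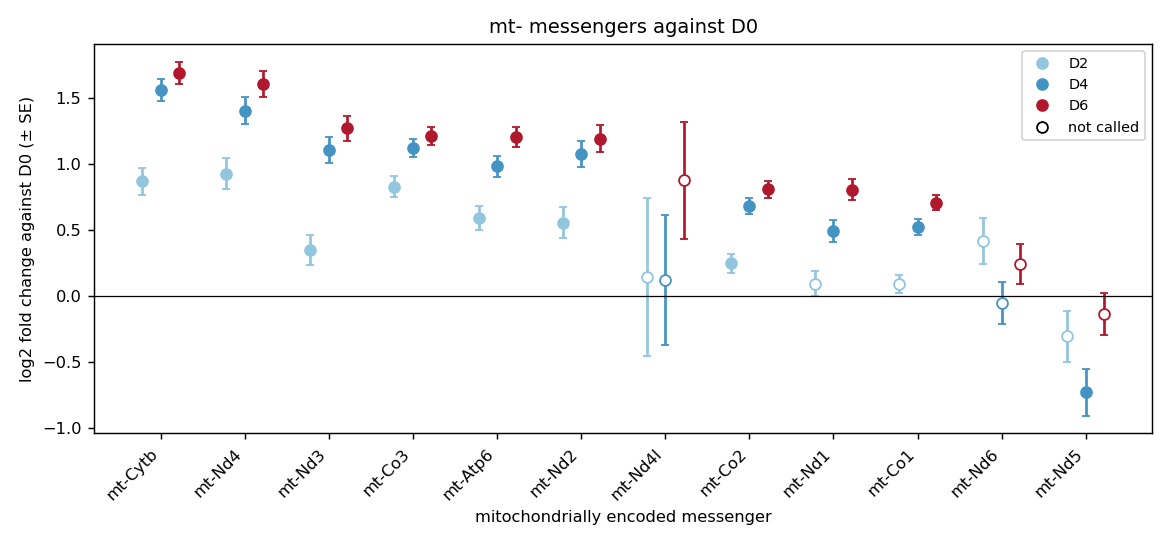
Log2 fold change in abundance against D0 of the 12 mt- messengers tested, at D2, D4 and D6, with bars of ± 1 standard error (limma-voom, n = 3 libraries a day). Open symbols did not pass an adjusted p of 0.05. mt-Cytb at 1.69 and mt-Nd4 at 1.61 are highest at D6, and mt-Nd5 is below 0 at D2, D4 and D6.

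Other genes of mitochondrial translation were fewer in reads. Of 5 further ribosome subunits under other symbols, 1 was lower at D6 (Ptcd3, -0.69, adjusted p = 0.0395, limma), where 18.2% of all genes were, and 0 were without scaling factors. Dap3 was at 0.17 (adjusted p = 0.529, limma). Of 13 genes tested from a list of translation factors, 2 (15.4%) were lower at D6 and 0 higher, beside 18.2% and 19.4% of all genes, and 1 (7.69%) was lower without scaling factors, beside 12.6%. Tsfm, the exchange factor of the elongation factor Tufm, had 108, 113 and 93.9 CPM at D0 and 55.5, 44.8 and 49.5 at D6, without overlap (-1.08, adjusted p = 0.000227, limma). The other was Letm1 (-0.78, adjusted p = 0.0293, limma), an inner membrane cation exchanger that stood on the list but is no translation factor itself. Tufm itself was at -0.40 (adjusted p = 0.104, limma).

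Of 21 assembly factors tested, 3 (14.3%) were lower and 1 (4.76%) was higher at D6, beside 18.2% and 19.4% of all genes, and the counts without scaling factors were also 3 and 1, beside 12.6% and 27.4%. Tfb1m, which methylates the small ribosomal RNA, had 40.8, 50.8 and 49.1 CPM at D0 and 22.2, 12.8 and 13.8 at D6, without overlap (-1.55, adjusted p = 0.000585, limma). Malsu1, which binds the large subunit, was at -0.80 (adjusted p = 0.00317, limma), and Mrm2, a methyltransferase of the large ribosomal RNA, at -1.49 (adjusted p = 0.0103, limma) on 79 reads. The GTPase Mtg2 was higher (1.18, adjusted p = 0.0415, limma) on 69 reads, its D0 and D6 libraries overlapping. Of 13 genes of mitochondrial transcription and RNA care tested, Lrpprc, which stabilises mt- messengers, was lower (-0.76, adjusted p = 0.0178, limma) and 0 were higher, a share of 7.69% that lies under the 18.2% of all genes. Without scaling factors 0 of the 13 were lower and 1 was higher (12.6% and 27.4% of all genes). Tfam, which packages mitochondrial DNA, was at -0.19 (adjusted p = 0.546, limma), and Polrmt, the RNA polymerase, at -0.70 (adjusted p = 0.2, limma).

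The poly(A) tail, which protects a messenger and aids its translation, was measured on the same reads. The median tail over all member reads of a library was 102 ± 2.53 nt at D0, 96.7 ± 2.1 at D2, 100 ± 0.696 at D4, then 102 ± 1.88 at D6 (SD, n = 3). The D2 libraries lay below D0 by 5.42 nt without overlap, and the D4 and D6 libraries overlapped D0. All nuclear messengers had medians of 103, 97.5, 96.9 and 102 nt. Reads with tails under 30 nt made up 2.93% ± 0.716 of member reads at D0 and 3.73% ± 0.48 at D6, and those of 30 to 90 nt 38.7% ± 1.34 and 38.6% ± 1.15, with overlap in both. By replicate number, the member shares under 30 nt were 3.01%, 3.6% and 2.17% at D0 and 3.51%, 4.28% and 3.39% at D6. Each number was higher at D6. The same was so for all nuclear messengers, whose mean share was 2.3% at D0 and 3.29% at D6. Large subunit members had medians of 102 nt at D0 and 101 at D6, and small subunit members 103 and 104. Cytosolic ribosomal protein messengers went from 97.1 to 80.1 nt, and 78 of 84 were called shorter in their median at D6, beside 5.23% of all genes called in either direction.

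**Figure D5:**
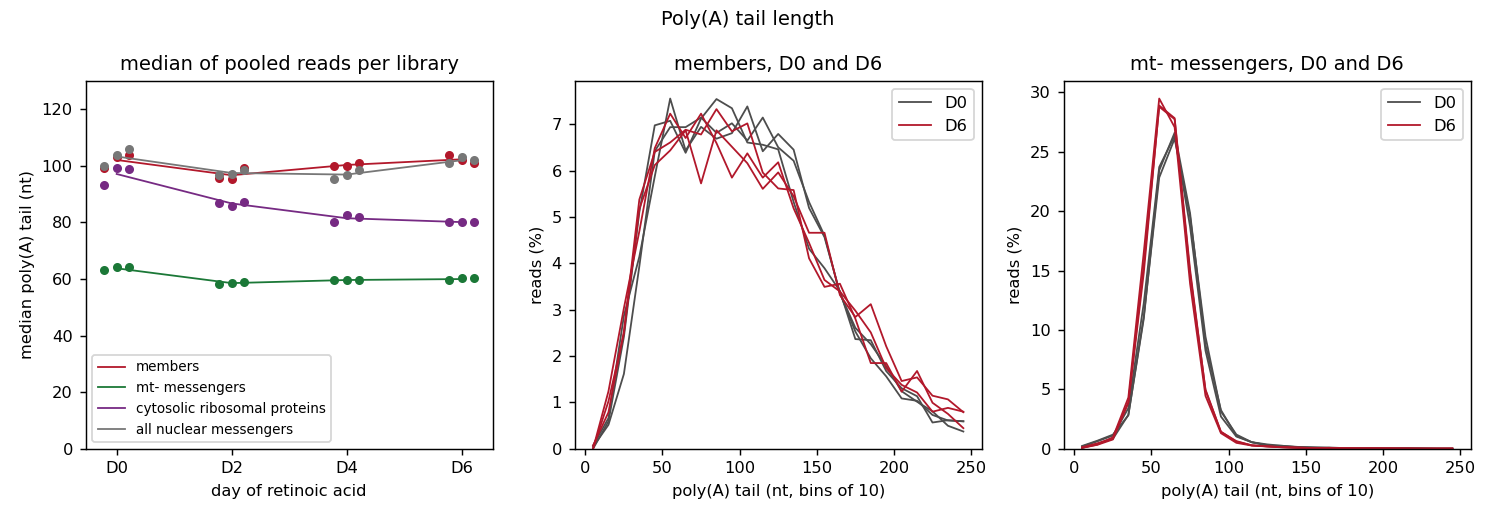
Left, median poly(A) tail length (nt) of the pooled reads of each library by day for members, mt- messengers, cytosolic ribosomal proteins and all nuclear messengers, with lines through the day means. Middle and right, percentage of reads in bins of 10 nt for members and for mt- messengers, 1 line for each D0 and D6 library. Member curves of D0 and D6 lie over each other, and the mt- curves have 1 narrow peak that lies at shorter tails at D6.

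Gene by gene, 76 members had enough reads for the tail tests. Members had a median of 38.2 reads a library, so small differences in tail length could go uncalled. By limma on median lengths, 0 members were called at D2 (2.14% of all genes were), with 1 longer and 6 shorter at an unadjusted p under 0.05 (9.21%, where 8.15% of all genes were). At D4, 0 were called (3.26% of all genes), with 3 longer and 1 shorter unadjusted (5.26%, where 11.1% of all genes were). At D6, 1 was called, shorter (5.23% of all genes in either direction), with 4 longer and 2 shorter unadjusted (7.89%, where 16.3% of all genes were). The median difference of the members was -3.17 nt at D2, -1.9 nt at D4 and -0.49 nt at D6. Over all genes it was -2.93, -0.913 and 4.19 nt.

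For the share of tails under 30 nt, limma called 0 members at D2 (0% of all genes), with 5 higher and 1 lower before adjustment (p under 0.05), 7.89% where 5.78% of all genes were. It called 0 at D4 (0.879%), with 8 higher and 1 lower unadjusted, 11.8% where 11.7% of all genes were. At D6 it called 1 (1.5%), with 3 higher and 1 lower unadjusted, 5.26% where 9.84% of all genes were. For the share of 30 to 90 nt it called 0 at D2 (2.52%), with 5 higher and 1 lower unadjusted, 7.89% where 8.75% of all genes were. It called 0 at D4 (3.49%), with 0 higher and 2 lower unadjusted, 2.63% where 10.4% of all genes were. At D6 it called 1 (3.83%), with 3 higher and 5 lower unadjusted, 10.5% where 12.8% of all genes were. The 3 calls at D6 were on 3 genes, and an unweighted fit made none of them. The median tail call was also lost without any 1 of the D0 or D6 libraries or D2 replicate 1 or 3, the call under 30 nt without any 1 of the D0 libraries, D2 replicate 1 or D6 replicate 1 or 2, and the call of 30 to 90 nt without D0 replicate 1 or 2, D2 replicate 2 or D6 replicate 3. Without D0 replicate 3 there were 2 calls of 30 to 90 nt.

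Mrpl52, higher in abundance at D6, was the gene with a shorter median tail, at 98, 107 and 104 nt at D0, 95.1, 70.4 and 83.9 at D2, 100, 100 and 81.9 at D4, and 68.9, 85.8 and 83.3 at D6. The D0 and D6 libraries did not overlap, and the difference was -22.7 ± 6.84 nt (SE, adjusted p = 0.0443, limma). Mrps21, also higher in abundance, had 0%, 0.935% and 0% of tails under 30 nt at D0 and 4.82%, 3.54% and 3.26% at D6, a difference of 3.44 ± 0.633 percentage points (adjusted p = 0.0332, limma). These shares rest on few short reads a library. Mrpl12 had 45.1%, 39% and 33.3% of tails from 30 to 90 nt at D0 and 25.4%, 33.3% and 20.3% at D6, which meet at 33.3% (-11.9 ± 3.68 percentage points, adjusted p = 0.0441, limma). Its median tail was 97.2, 100 and 112 nt at D0 and 110, 110 and 117 at D6, which overlap (8.99 ± 5.56 nt, adjusted p = 0.444, limma).

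Of the genes that fell most, Mrpl38 had median tails of 117, 96.1 and 98.8 nt at D0 and 90.1, 103 and 102 at D6, and Mrpl45 86.2, 97.7 and 105 against 108, 73.4 and 102. Both pairs of groups overlapped (adjusted p = 0.905 and 0.952, limma). Over the 76 genes, mean medians ran from 79.8 nt (Mrpl2) to 120 nt (Mrpl23) at D0 and from 79.4 (Mrpl52) to 127 (Mrps27) at D6.

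The tails of mt- messengers were shorter than those of the members in every library. Their pooled median was 63.8 ± 0.581 nt at D0, 58.6 ± 0.415 at D2, 59.7 ± 0.186 at D4, then 60 ± 0.461 at D6, with each later day below D0 without overlap. Their tails of 30 to 90 nt went from 92.3% of reads to 95.6%. On some of these messengers the tail completes the stop codon. The last 24 bases of 5 coding sequences in mm10 (GENCODE vM21) are shown for that reason, with the stop letters that the genome encodes in capitals.
mt-Co3 (chrM:8607-9390, plus strand): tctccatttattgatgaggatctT
mt-Cytb (chrM:14145-15288, plus strand): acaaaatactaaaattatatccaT
mt-Nd4 (chrM:10167-11544, plus strand): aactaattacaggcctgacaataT
mt-Co1 (chrM:5328-6872, plus strand): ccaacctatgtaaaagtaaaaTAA
mt-Atp6 (chrM:7927-8607, plus strand): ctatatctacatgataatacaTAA
The first 3 end on a T alone, as 3 of the 13 do, and the others carry a whole stop codon. Of 11 mt- messengers with enough reads, 4 were called shorter in median tail on each later day, beside 2.14% (D2), 3.26% (D4) and 5.23% (D6) of all genes called in either direction. The difference was below 0 in 10, 9 and 8 of the 11. At D2 its median was -4.25 nt, against -3.17 nt in the members, of which 0 were called. The mt- messengers held 313187 reads over 13 genes, against 39276 over 78 members, so smaller differences could be called in them. The called ones at D6 were mt-Co3 (-5.62 ± 1.08 nt at D6, adjusted p = 0.000493, limma), mt-Co1 (-4.39 ± 0.685, adjusted p = 1.77e-05), mt-Co2 (-3.91 ± 0.745, adjusted p = 0.000428) and mt-Atp6 (-6.49 ± 0.789, adjusted p = 1.47e-07). mt-Co1 had medians of 70.3, 70.9 and 70.8 nt at D0 and 65.8, 66.3 and 66.7 at D6, with no overlap and differences within a day under 1 nt. mt-Cytb, at 60.7, 61.8 and 62.1 nt at D0 and 59.8, 60.2 and 60.6 at D6, did not overlap either but was not called (-1.34 ± 1.14 nt, adjusted p = 0.611, limma).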

How the data were processed

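Direct RNA nanopore reads of 12 libraries (4 days, 3 replicates each) were used as the authors deposited them, 1 line per read. Per the study's methods, the authors called bases with Guppy, mapped reads to mm10 transcripts with minimap2 2.20 (version from the submitters' processing notes), estimated poly(A) tails in nt with Nanopolish and assigned barcodes with Deeplexicon. The deposited mapping quality is a score of the aligner, and the deposited barcode confidence is a fraction from the authors' barcode caller. A deposited table of the authors' own log2 fold changes, adjusted p-values and calls was not used.

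Of 6306434 lines, 69 were malformed and 289260 named no library. Reads with the tag PASS (77.7%) on messenger transcripts, without pseudogenes, gave 4212664 nuclear and 313187 mt- reads. mt- reads stayed out of the library sizes. Reads were tallied per gene. Since these tallies were made here from single reads, abundance was fitted with limma-voom over all 12 libraries and not with a count model, for genes with at least 30 reads. Library sizes used TMM factors (30% of ratios and 5% of levels trimmed) and 0.5 reads were added as a pseudocount. P-values were adjusted by Benjamini-Hochberg over all genes tested and called at 0.05. Tail medians and tail class shares were fitted with limma, weighted by reads, for genes whose libraries averaged 10 reads or more, none below 3.

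Members, gene lists and the rule for named genes were chosen with earlier results of these data known. Named genes were the members with the largest calls without overlap at each day, the 5 with most reads and 13 members of known role; Mrps28, Mrps35, Mrps10, Mrpl17 and the members listed as called without scaling factors or lost under the replicate block were named after their values were seen. The alternatives covered scaling, filters, tools, mapping quality, barcode confidence, transcripts, depth, the replicate block and leaving out each library. The fits were tested on simulated data. Python 3.11.15, numpy 2.4.6, pandas 2.3.3, scipy 1.17.1, R 4.3.3 and limma 3.58.1 were used.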

Additional observations from a re-analysis of the deposited data

Results flagged for a closer look

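The pseudogene Mrpl23-ps1 (chr2:74591330-74591909, mm10), which the choice of members left out, held 534 reads, a signal in data that no comparison used. These were 169 reads at D0, 79 at D2, 145 at D4, then 141 at D6. Of them, 9.36% had a mapping quality of 10 or more and the median tail was 90.6 nt. Its parent gene Mrpl23 held 256 reads, 16% of them with a mapping quality of 10 or more, and was at a log2 fold change of -0.38 at D6 (adjusted p = 0.295, limma). Whether reads were split between the gene and its copy was not tested.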

How the results depend on the processing

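Of 607 values recomputed for the counts, medians, sums and tails, 526 kept within the stated limits and 81 moved. Without scaling factors, 21 members were called at D6 (32 with them), 1 at D4 against D2 and 1 at D6 against D4. The members' median was then -0.08 at D6, -0.06 at D4 and 0.03 at D2, their summed ratio to D0 0.941, 0.99 and 1.02, and that of the mt- messengers 2.42, 1.98 and 1.54. Thinning every library to the smallest left 9 members called at D6 (7 lower, 8.97%, where 9.94% of all genes were), 7 at D4 (5 lower, 6.41%, where 5.23% were), 2 at D2 (both lower, 2.56%, where 3.01% were) and 0 between neighbouring days, with a median of 0.03 at D2 (0.04 over all genes). By limma-trend, 10 members were called at D4 (3 higher and 7 lower) and 0 at D6 against D4, with no share of all genes beside them. With a mapping quality of at least 10, 0 members were called at D4 against D2 and 1 at D6 against D4. Only 9 mt- messengers were tested there, of which 3 were called at D2, all higher. At D4, 6 of the 9 were higher and 1 lower, and at D6, 6 were higher. The mt- ratio at D4 was then 1.65, and the mt- tails differed by -3.20 nt at D6 and -3.56 nt at D4. A barcode confidence of at least 0.75 gave 1 call at D4 against D2. The single tail calls at D6 were fragile. The median tail call went to 0 in the unweighted fit, under the replicate block, at the higher mapping quality and on protein_coding transcripts. The call under 30 nt went to 0 in the unweighted fit, under the block, at the higher mapping quality, at the higher confidence and with limits of 25, 35 and 85 nt, and the call of 30 to 90 nt went to 0 in the same settings other than mapping quality. At least 20 reads per library gave 1 median tail call at D2. By mean length, member tails differed by 2.94 nt at D6 and 0.35 nt at D4. Fits of mean lengths called 1 member longer and 0 shorter at D6, where medians gave 0 longer and 1 shorter. The cause of these shifts was not tested.

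Among genes named at D6, the log2 fold change turned positive without scaling factors for Mrpl34 (0.07), Mrpl20 (0.14), Mrpl3 (0.21), Mrpl33 (0.10), Mrps5 (0.08) and Mrps12 (0.04), at the higher mapping quality for Mrpl3 (0.20) and Mrps2 (0.25), on protein_coding transcripts for Mrpl3 (0.25) and after thinning for Mrpl3 (0.18) and Mrps5 (0.52), none of which passed in either fit. Leaving out 1 library moved Mrpl3 between -0.10 and 0.08 and Mrps12 between -0.39 and 0.16. Thinning lost the D6 calls of Mrps27, Mrpl2, Mrpl55, Mrps33 and Mrps18b. It also lost those of Mrpl58 (adjusted p = 0.216, limma), Mrpl52 (adjusted p = 0.203, limma) and Mrpl51 (adjusted p = 0.0599, limma).

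Leaving out 1 library at a time gave 26 to 33 members called at D6, 13 (without D0 replicate 2) to 21 at D4, 3 (without D0 replicate 2) to 9 (without D0 replicate 3) at D2, 0 (without D2 replicate 2) to 2 at D4 against D2 and 1 (without D4 replicate 1 or D6 replicate 2) to 4 (without D6 replicate 1) at D6 against D4. At D4 against D2 there was also 1 call without D2 replicate 3, D4 replicate 1 or D4 replicate 3. These counts pool both directions. At D6 the lower calls ranged from 21 (without D6 replicate 2) to 29 (among others without D2 replicate 1), and the higher calls from 3 to 5. At D4, 7 were lower and 6 higher without D0 replicate 2. The shares of all genes given above belong to fits with every library. Without D2 replicate 2 the D2 calls were 3 lower and 1 higher, and without D2 replicate 3 they were 4 lower and 0 higher. The members' median ranged from -0.44 to -0.27 at D6, -0.19 to -0.07 at D4 and -0.22 to -0.05 at D2. The summed ratio ranged from 0.759 to 0.827, 0.901 to 0.949 and 0.869 to 0.941, and that of the mt- messengers from 1.95 to 2.24, 1.75 to 1.92 and 1.28 to 1.49. The mt- calls ranged from 9 to 10 at D6, 10 to 10 at D4 and 5 to 7 at D2. The median tail calls ranged from 0 to 1 on each day, those under 30 nt from 0 to 1 at D6, and those of 30 to 90 nt from 0 to 2 at D6 and 0 to 1 at D2. The member tails differed by -1.28 to 1.16 nt at D6, -3.09 to -0.64 at D4 and -6.83 to -4.39 at D2, and the mt- tails by -4.18 to -3.57, -4.50 to -3.98 and -5.59 to -5.04.

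The replicate numbers were not taken to pair the libraries, as same-number libraries correlated in their deviations by -0.11 to 0.108 (18 pairs). Some features nonetheless went with the number. Of 12 libraries, 8 correlated best with their own number. Replicate 2 had the lowest mt- share of its day on each day (3.95%, 5.62%, 7.45% and 8.45%). The share of nuclear messenger reads with tails under 30 nt was highest in replicate 2 and lowest in replicate 3 on each day. It was 2.65% and 1.89% in these at D0, and 3.78% and 2.89% at D6. Under the replicate block, 24 members were lower and 4 higher at D6, 7 were lower and 7 higher at D4 (14 and 7 without it), and 6 were lower and 1 higher at D2. The shares of all genes given above belong to fits without the block, so these counts have no such share beside them. The 7 calls at D4 lost under the block were Mrpl15, Mrpl17, Mrpl19, Mrpl51, Mrps2, Mrps18b and Mrps25.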
